A study of Mus musculus with 32 samples.

Results

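The mRNAs bound to Sertoli cell ribosomes were compared with the RNA of the whole testis in 10 of the 32 arrays of the series, 5 immunoprecipitates (IPs) and 5 inputs from AMH-Cre: RiboTag mice given saline, chosen by their sample titles. RiboTag mice carry an allele of a ribosomal protein that gains a hemagglutinin (HA) tag after Cre recombination, and the animals were double heterozygotes for Cre and RiboTag. AMH-Cre is driven by regulatory sequence of the anti-Müllerian hormone gene and is active in Sertoli cells. Polysomes were recovered from testis homogenates with an anti-HA antibody, and the input is the RNA of the homogenate itself, which holds transcripts of all testis cells, Sertoli cells included. The mice are described as adult for the testosterone and FSH experiments, and the labels give no age, no animal and no batch for any array. Equal amounts of RNA, about 100 ng, were amplified and hybridized to Affymetrix Mouse Gene 1.0 ST arrays, and the values are log2 signals after RMA normalization by the authors. The IP to input ratio therefore compares shares of RNA, and fewer cells of a type and less RNA per cell cannot be told apart in such samples. As the labels do not say that the arrays came from separate animals, the p-values refer to the spread among arrays, which may be technical. The same contrast in 3 IPs and 3 inputs from Cyp17iCre: RiboTag mice given saline, in which Leydig cells carry the tag, served for comparison. The study's staining also found tagged cells within the tubules of that line, and the study identified them as Sertoli cells from their transcripts. In the Leydig IPs 6 of 22 Sertoli cell markers were enriched, with a median ratio of 1.27. How far tagged Sertoli cells add to the ratios of the Leydig line was not tested.

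Sertoli cells are the somatic cells of the seminiferous epithelium. Each spans the epithelium from the basement membrane to the lumen, holds germ cells of several stages in pockets of its membrane, seals the adluminal compartment with tight junctions, feeds the germ cells with lactate and other nutrients, and engulfs the residual cytoplasm and the many germ cells that die. They respond to FSH through Gs and cyclic AMP and to testosterone through the androgen receptor, and they stop dividing before adulthood.

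Of 24797 probe sets whose linear signal passed 50 in at least 1 of the 10 arrays, 3066 (12.4 percent) were enriched in the IPs by at least 2-fold and 2907 (11.7 percent) were depleted by at least 2-fold, at a Benjamini-Hochberg adjusted limma p under 0.05. Read at 1 probe set a gene, 2367 of 15665 genes (15.1 percent) were enriched and 2136 (13.6 percent) were depleted, and the median ratio was 0.985. High ratios were few, as 1202 genes passed 3-fold, 300 passed 5-fold and 17 passed 7-fold, with 9.03, that of Sptb, as the highest ratio. The study regards the enrichment of Sptb and of Etl4, present in both lines, as a product of the precipitation rather than of the cell type. IPs correlated with each other at 0.987 to 0.992 over the probe sets tested, inputs at 0.983 to 0.993, and IPs with inputs at 0.852 to 0.885. Deviations from the IP mean correlated at 0.115 between IPs 4 and 5, at -0.157 to 0.00138 among IPs 1 to 3 and at -0.463 to -0.337 between these sets, and centring on a mean itself lowers such values. With only replicates 1 to 3 of IPs and inputs 3244 probe sets were enriched and 2947 depleted.

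The label of the IPs was checked against 4 markers of the cell type, and all 4 were enriched. Fshr, the FSH receptor, had log2 signals of 9.13, 9.14, 9.37, 8.97 and 8.90 in IPs 1 to 5 and of 6.41, 6.34, 6.38, 6.50 and 6.69 in inputs 1 to 5. Every IP lay above every input, and the ratio was 6.23 (log2 2.64, SE 0.096, limma adjusted p = 4.06e-10). The ratio was 6.90 for Trf, the iron carrier transferrin, 6.20 for Sox9, the transcription factor that directs Sertoli cell fate, and 5.11 for Cldn11, a claudin of the tubular barrier. Of 22 Sertoli cell markers measured 20 were enriched, with a median of 5.07, and Ptgds (1.65) and Gdnf (1.43) did not pass. Over the whole list the mean log2 signal lay between 10.79 and 10.91 in the IPs and between 8.58 and 8.82 in the inputs.

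Most markers of Leydig cells, spermatocytes and spermatids were depleted. Of the Leydig markers 10 of 10 were depleted (median ratio 0.323), of the spermatocyte and meiosis genes 16 of 25 and none was enriched (median 0.440), and of the spermatid genes 21 of 28 and none was enriched (median 0.337). Among 12 macrophage markers 7 were depleted and 1 was enriched, Mrc1, the mannose receptor, at 6.92. Its log2 signals were 11.43, 11.62, 11.56, 11.26 and 11.39 in the IPs against 8.68, 8.53, 8.58, 8.67 and 8.85 in the inputs, while Lyz2, the macrophage lysozyme, stood at 0.206 of the input level. Among 13 spermatogonia markers 3 were depleted and 1 was enriched, Uchl1, a ubiquitin hydrolase, at 3.51. Of 9 peritubular myoid markers 2 were enriched, Myh11 (3.78) and Myl9 (3.38), and 2 were depleted, Acta2 (0.328) and Actg2 (0.305), and of 9 endothelial markers none passed the test in either direction, with ratios from 0.722 to 1.84. The endothelial markers averaged log2 6.18 to 6.29 in the IPs and 6.32 to 6.42 in the inputs. Array medians were 6.363 to 6.449 and 6.428 to 6.475, so these low signals say little about endothelial RNA. The part that other cells had in the enrichments was not tested.

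**Figure D1:**
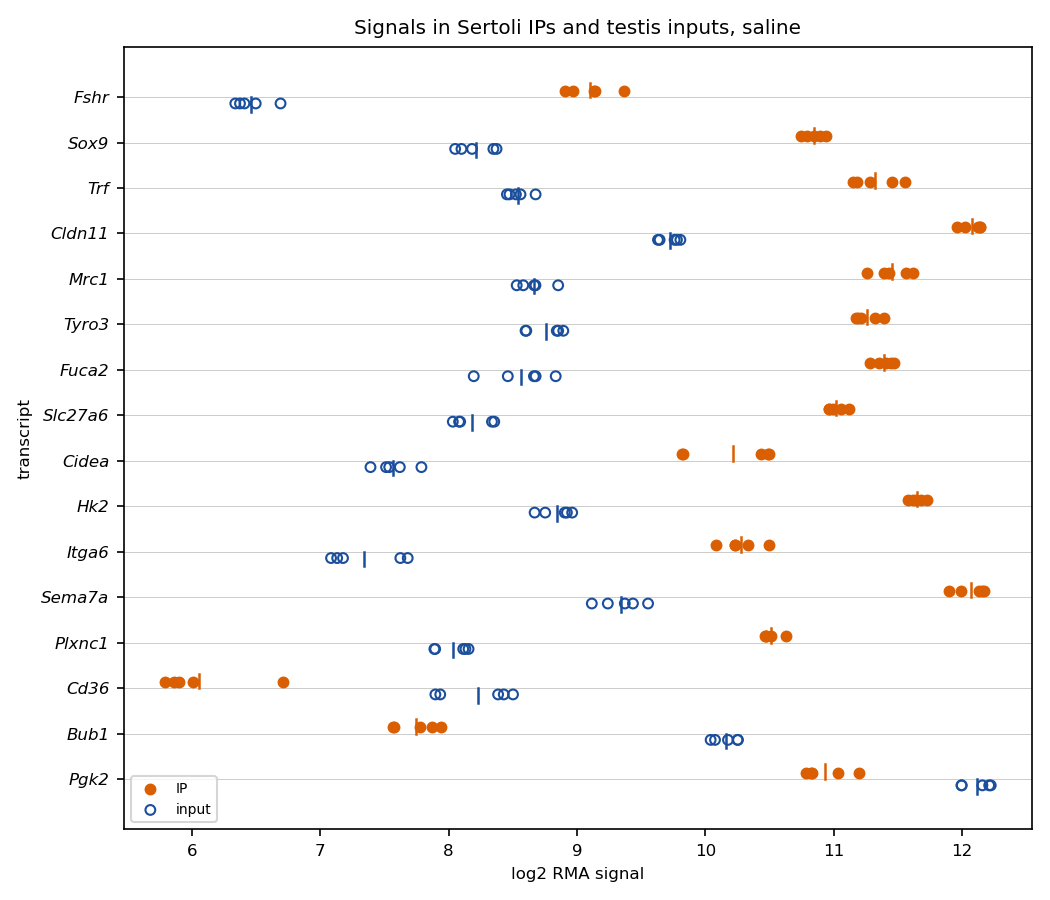
Log2 RMA signals (horizontal axis) of 16 transcripts in each of the 5 IPs (filled circles) and the 5 inputs (open circles) from AMH-Cre: RiboTag mice given saline, with a short bar at each group mean. The IPs lie above every input for the first 13 transcripts, from Fshr to Plxnc1, and below every input for Cd36, Bub1 and Pgk2, as they do for 27.2 and 31.9 percent of all probe sets tested.

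Lists of genes by function held 1160 entries in 34 lists, of which 999 had a probe set that was tested, and the counts given are of those. Over all genes 15.1 percent were enriched and 13.6 percent depleted, and each list is to be read beside these shares. Lists and members were chosen with earlier results of these data known, so their shares and their order are descriptions only. Engulfment had the highest share of enriched genes among these lists. Of 22 genes of engulfment receptors and their signalling 13 (59.1 percent) were enriched and 1 was depleted. The median was 3.43, beside 0.985 over all genes. The 3 receptor tyrosine kinases of the TAM family, which recognize phosphatidylserine on dying cells through bridging ligands, were enriched together. Tyro3 had log2 signals of 11.39, 11.19, 11.17, 11.21 and 11.32 in the IPs and of 8.85, 8.60, 8.61, 8.89 and 8.84 in the inputs, a ratio of 5.65 (log2 2.50, SE 0.079, adjusted p = 1.85e-10, limma). Axl stood at 4.80 and Mertk at 4.35, and their bridging ligands Pros1 (protein S) and Gas6 at 6.27 and 4.20. The second bridge to phosphatidylserine showed the same direction, with Mfge8, the milk fat globule protein, at 6.30 and the subunits of the integrin that binds it, Itgav and Itgb5, at 5.14 and 5.59. Downstream, Dock1, the exchange factor that activates Rac during engulfment, reached 4.47 and its partner Elmo1 2.86, whereas Elmo2 (1.26) and Rac1 (1.84) did not pass. The exception was the scavenger receptor Cd36. Its signals were 6.01, 5.90, 5.86, 6.71 and 5.79 in the IPs and 8.43, 7.90, 8.39, 8.50 and 7.94 in the inputs, so that the IPs held 0.222 of the input share, and in the Leydig IPs it was 11.4-fold enriched. In the Leydig IPs 12 of the 22 genes were enriched (median 2.28), and by the test of the difference 5 were higher and 3 lower in the Sertoli line. Enrichment of Tyro3 and Axl was larger than in the Leydig IPs by the test of the difference (log2 2.45, SE 0.12, adjusted p = 1.40e-10, and log2 2.14, SE 0.11, adjusted p = 3.27e-10), that of Pros1 was not (log2 0.22, SE 0.11), Pros1 standing at 5.39 in the Leydig IPs.

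Degradation followed the same direction in part. Of 36 genes for lysosome enzymes and membrane proteins 21 (58.3 percent) were enriched and 1 was depleted (median 2.26). Fuca2, an alpha-fucosidase, reached 7.09, with log2 signals of 11.47, 11.41, 11.45, 11.36 and 11.29 in the IPs and 8.83, 8.67, 8.68, 8.46 and 8.20 in the inputs. Lipa, the acid lipase that frees cholesterol and fatty acids from engulfed lipid, stood at 6.94, Ctsa, the protective protein of the sialidase complex, at 4.59, Tpp1, a tripeptidyl peptidase, at 4.16, and Ctsl and Ctsd, the cathepsins L and D, at 3.51 and 3.28. Arsa, which removes sulfate from sulfatides, was depleted to 0.383. In the Leydig IPs 27 of its members were enriched (median 3.30), where 12.5 percent of all genes were. By the test of the difference 1 member, Fuca2, was higher in the Sertoli line and 10 were lower, beside 7.99 percent of 15919 genes that were higher and 6.82 percent that were lower. Of 28 autophagy genes 8 (28.6 percent) were enriched, beside 15.1 percent of all genes. Among them were Tfeb, the transcription factor that activates lysosomal genes (3.45), and Map1lc3b, an autophagosome protein (2.79). Depleted were 2, Map1lc3a (0.491) and Atg9a (0.486).

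Tfeb and its relatives bind an E-box that in lysosomal genes often reads TCACGTGA, so the promoters of RefSeq (GRCm38.p6, 250 bases before to 50 after the start) were searched for these letters, on both strands. The 8-letter palindrome contains the E-box CACGTG. It occurred in a promoter of 223 of 12449 tested genes with a promoter entry (1.79 percent), of 51 of 1931 enriched genes (2.64 percent), of 16 of 1722 depleted genes (0.929 percent) and of 5 of 32 genes of the lysosome list (15.6 percent), which were Ctsa, Ctsd, Gla, Mcoln1 and Atp6v0d1. The first 3 were enriched, and they were 3 of the 19 enriched genes of that list with a promoter entry (15.8 percent), a share near that of the list. Their promoters are shown with the palindrome in capitals. Ctsa (chr2:164833523-164833822, plus strand) holds it at 2 places that flank the start site, Ctsd (chr7:142387778-142388077, minus strand) at 1 place and Gla (chrX:134600956-134601255, minus strand), which encodes alpha-galactosidase A and stood at 2.05, at 2 places. Another promoter entry of Ctsa (chr2:164832622-164832921, plus strand), not shown, holds 0 matches. A match of letters is a description and not a site of binding.
Ctsa: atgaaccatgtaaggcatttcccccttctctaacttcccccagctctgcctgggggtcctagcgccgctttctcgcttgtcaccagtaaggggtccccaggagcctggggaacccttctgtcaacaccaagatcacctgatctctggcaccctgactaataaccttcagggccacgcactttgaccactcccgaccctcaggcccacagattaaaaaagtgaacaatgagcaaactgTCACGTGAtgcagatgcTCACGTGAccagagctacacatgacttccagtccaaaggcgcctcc
Ctsd: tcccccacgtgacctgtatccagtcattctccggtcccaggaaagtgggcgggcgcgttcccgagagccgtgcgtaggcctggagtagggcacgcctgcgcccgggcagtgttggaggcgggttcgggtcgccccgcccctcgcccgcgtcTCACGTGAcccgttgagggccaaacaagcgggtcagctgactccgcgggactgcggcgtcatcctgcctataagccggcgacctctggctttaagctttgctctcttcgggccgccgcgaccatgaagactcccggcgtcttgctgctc
Gla: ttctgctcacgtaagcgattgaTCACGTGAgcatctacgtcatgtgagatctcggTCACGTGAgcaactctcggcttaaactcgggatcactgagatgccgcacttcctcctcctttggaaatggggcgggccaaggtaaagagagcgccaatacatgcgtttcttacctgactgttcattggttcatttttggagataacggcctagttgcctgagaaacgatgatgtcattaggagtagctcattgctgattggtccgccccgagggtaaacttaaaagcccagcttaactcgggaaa

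Genes for the use of fatty acids were enriched selectively by family member. Among 18 genes of fatty acid uptake and activation 7 (38.9 percent) were enriched and 7 were depleted. Slc27a3, Slc27a6 and Slc27a1, fatty acid transport proteins with acyl-CoA synthetase activity, stood at 7.47, 7.16 and 3.23, while Slc27a4 (1.24) and Slc27a2 (0.697) did not pass. Slc27a6 signals were 11.12, 10.96, 10.99, 10.96 and 11.06 in the IPs and 8.34, 8.03, 8.08, 8.36 and 8.09 in the inputs, and the Leydig IPs showed no enrichment of it (1.08; difference log2 2.73, SE 0.14, adjusted p = 3.90e-10). Acsl4, an acyl-CoA synthetase that prefers arachidonic acid, was enriched 6.61-fold and Fabp5, a fatty acid binding protein, 4.03-fold, whereas Fabp3 was depleted to 0.180 and was 6.25-fold enriched in the Leydig IPs. For the oxidation of fatty acids and lipid droplets 11 of 29 genes (37.9 percent) were enriched and 2 depleted. They included Cpt1a, which commits long-chain acyl groups to the mitochondrion (5.25), the dehydrogenases Hadh (4.71), Acads (3.99), Acadl (3.82) and Acadm (2.85), and Bbox1, the last enzyme of carnitine synthesis (6.56). Cidea, a lipid droplet protein best known from brown fat, had log2 signals of 10.43, 10.49, 10.50, 9.82 and 9.82 in the IPs and 7.54, 7.39, 7.51, 7.79 and 7.62 in the inputs (ratio 6.24, SE 0.15 on the log2 scale, adjusted p = 1.19e-08, limma). Cidea and Bbox1 were at 0.969 and 1.15 in the Leydig IPs. There 18 of the 29 genes were enriched (median 3.03), and 13 were higher than in the Sertoli line by the test of the difference. These included Acadl (9.02) and Acadm (9.22). Hadh (6.04), Acads (5.77) and Cpt1a (6.22) also had higher ratios there, without passing that test. Few enzymes of cholesterol synthesis were enriched, 2 of 21 (Ebp at 5.03 and Nsdhl at 2.35). Of the others 3 were depleted (Sqle, squalene epoxidase, at 0.374), and 16 of the 21 were lower than in the Leydig line.

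Arachidonate metabolism gave 6 of 23 genes enriched (26.1 percent) and none depleted. These were Alox12 and Aloxe3, lipoxygenases (7.0 and 4.25), Ptgr1, which reduces prostaglandins and leukotriene B4 (5.84), Pla2g4a, the cytosolic phospholipase that releases arachidonate (4.92), Lta4h, the hydrolase that makes leukotriene B4 (2.76), and Ptges2 (2.13). Ptgs2, the inducible cyclooxygenase, stood at 1.21. Its signals were 5.97 in IP 4 and at most 5.30 in the other IPs, below the medians of the IP arrays (6.363 to 6.449). Such low signals say little about it. In the Leydig IPs 6 genes of the list were enriched too and none was depleted (median 1.12, beside 1.19 in the Sertoli IPs). By the test of the difference 2 were higher and 4 lower in the Sertoli line.

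Energy and building block metabolism was enriched at particular steps, and in the Leydig line too. In the Leydig IPs 11 genes of glycolysis and lactate and 10 of glycogen and pentose phosphate were enriched. So were 8 of the folate and one-carbon enzymes and 12 of the amino acid and peptide transporters. Of 34 glycolysis and lactate genes 12 (35.3 percent) were enriched and 6 depleted. Hk2, the hexokinase, had log2 signals of 11.68, 11.64, 11.58, 11.62 and 11.73 in the IPs and 8.92, 8.67, 8.75, 8.96 and 8.91 in the inputs, a ratio of 7.0, whereas Hk1 stood at 0.598 and did not pass. Pfkl, the liver type phosphofructokinase, reached 6.88 while Pfkp was depleted (0.484) and Pfkm did not pass (0.602), and Ldhb, the lactate dehydrogenase subunit of oxidative tissues, reached 6.04 while Ldha did not pass (0.849). The lactate transporter Slc16a1 was enriched 3.98-fold and its chaperone Emb 6.65-fold, with Bsg, the chaperone more widely used, at 0.746 and not called. Of 19 glycogen and pentose phosphate genes 7 were enriched, with the brain and liver glycogen phosphorylases Pygb and Pygl at 5.39 and 3.77, the glycogen targeting subunit Ppp1r3c at 4.62 and glycogenin, Gyg, at 3.24. Folate and one-carbon enzymes were enriched at 8 of 17, among them Mthfd1l, a mitochondrial synthetase that frees formate (5.44), Mthfd1, its cytosolic counterpart (5.01), Gart, a purine synthesis enzyme (5.22), and the folate carriers Slc46a1 (4.39) and Folr1 (3.31), with Fpgs, which traps folate in cells, depleted (0.481). By the test of the difference 3 of the 17 were higher and 3 lower in the Sertoli line. Folr1, at 6.72 in the Leydig IPs, was among the lower ones (log2 -1.02). Its difference fell under 2-fold with median-centred arrays (-0.96), with Sertoli replicates 1 to 3 (-0.98) and without some single arrays. That of Slc46a1, among the higher ones, did so after quantile scaling (0.97) and without some single arrays. Amino acid and peptide transporters were enriched at 13 of 35 and depleted at 5. The highest were Slc7a4 (6.63), Slc15a1, the intestinal type peptide transporter (5.65), Slc38a2 (4.59) and the cationic amino acid carrier Slc7a1 (3.85), and the lowest was Slc7a11, the cystine carrier (0.336), which was 8.28-fold enriched in the Leydig IPs. Glutathione and antioxidant enzymes were enriched at 15 of 39 and depleted at 5, led by Gsta4 (4.98) and Gstp1 (4.92), with 25 enriched in the Leydig IPs and 13 of the list higher there by the test of the difference.

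**Figure D2:**
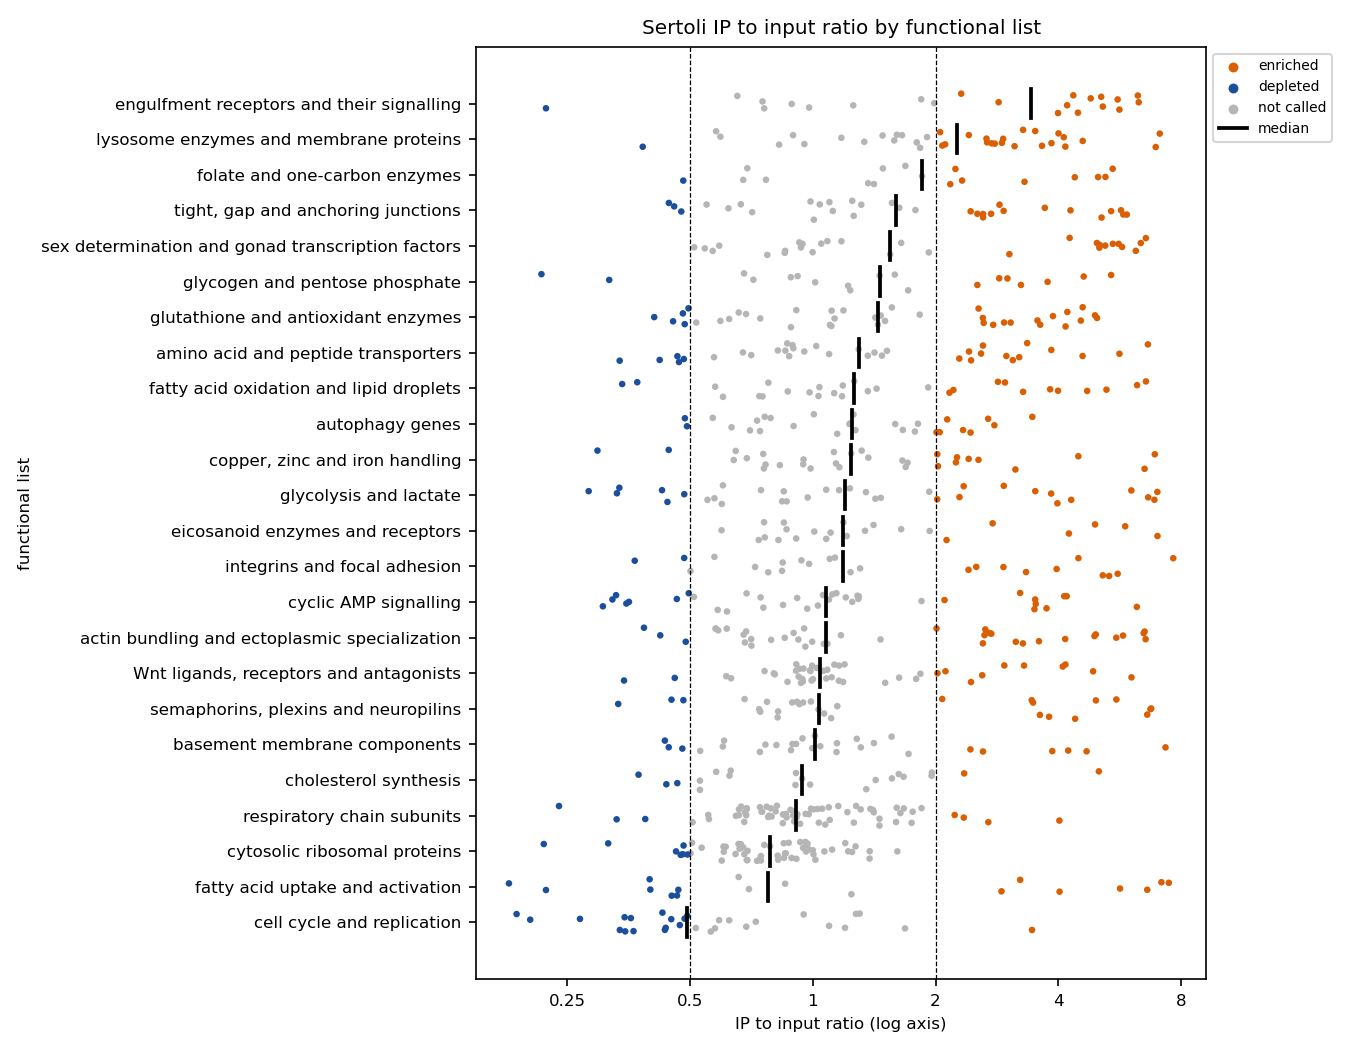
IP to input ratio (horizontal log axis) of every measured member of 24 functional lists in the saline-treated AMH-Cre: RiboTag mice, with the median of each list as a vertical bar. Orange points were enriched and blue points depleted (2-fold and adjusted p under 0.05), grey points did not pass, and the dashed lines mark 2-fold in either direction. Lists are ordered by median, from engulfment at 3.43 to cell cycle and replication at 0.492.

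Transport of metals, sugars and ions held single transcripts with high ratios. Of 31 genes for copper, zinc and iron 10 (32.3 percent) were enriched and 2 depleted. Besides Trf these were the copper ATPase Atp7a (6.51), the copper transporters Slc31a1 and Slc31a2 (2.26 and 2.55), the copper chaperone Atox1 (2.03), the iron importer Slc11a2 (4.48) and the iron exporter Slc40a1 (2.41), while Atp7b, the other copper ATPase, stood at 0.640 and Tfrc, the transferrin receptor, at 1.32, both not called. Cp, ceruloplasmin, was depleted to 0.296 and stood at 7.49 in the Leydig IPs. There 11 of the 31 genes were enriched, and by the test of the difference 6 were higher and 6 lower in the Sertoli line. Of 11 sugar transporters 3 were enriched, Slc2a12 (6.47), Slc2a1 (4.09) and Slc2a2 (2.02), and Slc2a3 and Slc2a5, which germ cells use, were depleted (0.461 and 0.466). Slc2a12 signals were 10.66, 10.65, 10.69, 10.34 and 10.55 in the IPs and 7.85, 7.75, 7.87, 7.98 and 7.98 in the inputs, against a ratio of 0.957 in the Leydig IPs (difference log2 2.76, SE 0.18, adjusted p = 5.29e-09). Among Na,K-ATPase subunits and their FXYD regulators 3 of 11 (27.3 percent) were enriched, the beta subunits Atp1b1 (5.39) and Atp1b2 (4.86) and the regulator Fxyd6 (4.01). Depleted were 3, among them the sperm alpha subunit Atp1a4 (0.445). Over all genes 15.1 percent were enriched and 13.6 percent depleted.

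Cell adhesion and the cytoskeleton showed enrichment of defined partners. Of 32 junction genes 14 (43.8 percent) were enriched and 3 depleted. The tight junction proteins F11r (5.89), Cgn (5.77) and Ocln (5.70) and the gap junction protein Gja1 (5.39) led the list, Nectin2 on the Sertoli side of the contact with spermatids was enriched (4.29), and Nectin3, its partner on the spermatid, was depleted (0.443). Of 24 integrins and focal adhesion genes 10 were enriched, with Itga6, a laminin receptor of the basement membrane, at 10.49, 10.09, 10.34, 10.23 and 10.23 in the IPs and 7.62, 7.18, 7.08, 7.68 and 7.13 in the inputs (ratio 7.66; 1.10 in the Leydig IPs). Its partner Itgb1 stood at 3.33, Vcl (vinculin) at 5.33 and Zyx (zyxin) at 4.48, and Itga1 was depleted (0.366). In the basement membrane 6 of 29 components were enriched, a share of 20.7 percent beside 15.1 percent over all genes: Nid1, nidogen (7.33), the laminin chains Lama1 (4.69), Lamc1 (2.61) and Lama3 (2.44), Col18a1 (4.23) and Sparc (3.87). The type IV collagens Col4a1 to Col4a6 lay between 0.765 and 1.41 with none called, and Lama2 and Lamb1 were depleted (0.434 and 0.443). In the Leydig IPs 7 of the 29 components were enriched, and by the test of the difference 3 were higher and 6 lower in the Sertoli line.

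The ectoplasmic specialization is a sheet of bundled actin that anchors spermatids and the barrier. Of 40 genes of actin bundling and this structure 17 (42.5 percent) were enriched and 3 depleted. They included the bundlers Espn (espin, 4.94), Pls3 (plastin 3, 5.77) and Actn3 (alpha-actinin 3, 6.55), the barbed end protein Eps8 (4.91), the formins Daam2 (6.51) and Diaph2 (6.48) and the motor Myo7a (5.55). Family members moved apart, as Daam1 (0.676), Diaph1 (0.952), Actn1 (0.706) and Actn4 (0.707) were not called and Diaph3 was depleted (0.488). Of 33 tubulins and microtubule proteins 9 (27.3 percent) were enriched, beside 15.1 percent of all genes. Tubb3 and Tubb5 stood at 5.63 and 5.58, Tuba1a at 5.48, Map1b at 6.91 and the motor Kif21a at 6.65. Depleted were 5, among them Tuba3a (0.303), Tuba3b (0.268) and Tuba8 (0.370), alpha-tubulins of the testis. Probes for near-identical tubulins can share signal. Tubb3, usually a neuronal tubulin, had signals of 10.40 to 10.73 in the IPs and of 7.85 to 8.36 in the inputs, with no overlap, and stood at 1.18 in the Leydig IPs.

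Guidance molecules formed a group with large differences from the Leydig line. Of 29 semaphorins, plexins and neuropilins 11 (37.9 percent) were enriched, 3 were depleted, and 10 had a larger ratio than in the Leydig line by the test of the difference (beside 7.99 percent of all genes). The semaphorins Sema6c (6.76), Sema3c (6.73) and Sema7a (6.61) and the receptors Plxnc1 (5.55) and Plxna1 (4.95) led, and Sema7a and Plxnc1 are ligand and receptor of each other. Sema7a signals were 12.13, 12.17, 12.15, 11.99 and 11.90 in the IPs and 9.37, 9.12, 9.24, 9.44 and 9.55 in the inputs, and those of Plxnc1 were 10.63, 10.46, 10.48, 10.51 and 10.47 and 8.16, 7.89, 7.90, 8.11 and 8.13, with no overlap between the groups for either. The Leydig IPs stood at 1.33 and 1.0 (differences log2 2.31, SE 0.14, adjusted p = 1.85e-09, and log2 2.47, SE 0.14, adjusted p = 1.00e-09). Nrp1, a semaphorin and VEGF receptor, was depleted to 0.481 and was 4.75-fold enriched in the Leydig IPs.

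In the Wnt pathway 8 of the enriched genes encode receptors and 1 encodes a ligand. Of 46 genes 10 (21.7 percent) were enriched and 2 depleted, beside 15.1 percent enriched and 13.6 percent depleted over all genes, so the share for the pathway lay near that of all genes. The receptors Fzd7 (4.17), Fzd4 (4.10), Fzd9 (3.30), Fzd5 (2.95) and Fzd8 (2.60), the coreceptor Lrp6 (2.44), Lgr4, the receptor of the R-spondins (4.87), and Ryk (2.12) passed, as did Frzb, a secreted antagonist, at 6.05. Wnt6 was the ligand that passed (2.02, and under 2-fold, at log2 0.94 to 0.99, without input 2 or 3 or without IP 1, 2 or 3) and stood higher in the Leydig IPs (5.67). The other 14 Wnt ligands measured lay between 0.613 and 1.16 and were not called. Among Notch, Hedgehog and Hippo components 12 of 41 were enriched, with Notch2 (5.97) and Notch1 (3.94) and their target Hes1 (3.29), the ligand Dhh (5.02) and the YAP partner Amot (5.50), and Jag1, a Notch ligand, was depleted (0.416). Of 42 secreted growth factors and cytokines 12 were enriched and 4 depleted. Members of the activin and TGF-beta system stood together: Inha (5.08) and Inhbb (5.07), subunits of inhibin B, the activin binding proteins Fstl3 (5.62) and Fst (2.39), and Tgfb1 (4.33) and Tgfb3 (4.22), with Inhba (1.08) and Tgfb2 (1.0) not called. The Tgfb2 inputs reached at most 5.62, below the medians of the input arrays (6.428 to 6.475), so its ratio says little.

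In cyclic AMP signalling, a list that held Fshr itself, 9 of 36 genes were enriched and 7 depleted. Over all genes these shares were 15.1 and 13.6 percent. The adenylyl cyclases Adcy9 (4.20) and Adcy2 (3.51), the phosphodiesterases Pde4d (3.74) and Pde4b (3.52), the coactivator Crtc3 (4.14) and the cyclic AMP sensor Rapgef3 (3.22) were enriched, whereas Adcy10 (0.306), Pde1a (0.329) and Crem (0.322), the cyclase, a phosphodiesterase and the transcription factor of germ cells, were depleted. Vitamin D and retinoid receptors were split by isotype. Vdr, the vitamin D receptor, had a ratio of 6.44 (log2 2.69, SE 0.080), with inputs between 7.26 and 7.60 and each IP at least 2 log2 units above them, and stood at 1.11 in the Leydig IPs. Rara and Rxrb were enriched (3.13 and 2.05, the second under 2-fold after quantile scaling at log2 0.98), Rarb and Rarg were not called (0.677 and 0.846) and Rxra was depleted (0.452). Of 21 genes of retinoid handling 4 were enriched, a share near the 15.1 percent of all genes, and 6 were depleted, and the enriched ones comprised Stra6, which takes up retinol (5.54), and Cyp26a1, which degrades retinoic acid (5.35), beside the receptors. Cyp26b1 (1.19) and the synthetic enzymes Aldh1a1 (1.85) and Aldh1a2 (0.707) were not called. Of 29 transcription factors and other genes of sex determination 12 (41.4 percent) were enriched and none depleted, with Etv5 at 6.56, Gata1 at 6.37, Gata4 at 5.62, Sox8 at 5.44, Nr0b1 at 5.74 and Dmrt1 at 3.03, and Foxl2, the factor of the ovarian fate, at 1.18. Etv5, Gata1, Gata4 and Sox8 were also among the Sertoli cell markers, so this share is in part a count of markers.

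Secreted and surface proteins of the extracellular space were enriched at 11 of 30 proteases and inhibitors and at 9 of 25 heparan sulfate genes (36.7 and 36.0 percent). Plat, tissue plasminogen activator, reached 7.44, Mmp14, a membrane type metalloprotease, 6.58, Serpina5, a serine protease inhibitor, 4.92, and Cst12 and Cst9, cystatins, 5.91 and 4.72, while Serping1, the C1 inhibitor, was depleted to 0.206. Of the heparan sulfate genes Gpc4, a glypican (7.35), Hpse, heparanase, which cleaves the chains (6.62), and Sulf1 and Sulf2, which remove sulfate groups from them (6.75 and 3.39), passed together with Hs6st1 and Hs6st2, which add them (3.13 and 3.80). Hpse signals were 10.71, 10.52, 10.42, 10.21 and 10.34 in the IPs and 7.97, 7.61, 7.71, 7.68 and 7.61 in the inputs, against a ratio of 0.979 in the Leydig IPs (difference log2 2.76, SE 0.19, adjusted p = 8.63e-09). The N-deacetylases Ndst3 and Ndst4 were depleted (0.305 and 0.254). Among complement regulators, defensins and genes of immune privilege 8 of 28 (28.6 percent) were enriched, with the beta-defensins Defb36 (5.19), Defb19 (4.35) and Defb45 (4.18). Depleted were 7, among them Cd55b (0.219) and Cd46 (0.418), complement regulators of sperm. In the Leydig IPs 10 of the list were enriched, and by the test of the difference 5 were higher and 10 lower in the Sertoli line. Over all genes 15.1 percent were enriched and 13.6 percent depleted, and the median of this list was 1.00.

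Genes of cell division were depleted or not called, apart from 1, and few genes of translation, respiration and protein turnover were enriched. Of 29 cell cycle and replication genes 15 were depleted and 1 was enriched (median 0.492). Bub1, a mitotic checkpoint kinase, had signals of 7.78, 7.87, 7.57, 7.94 and 7.58 in the IPs and 10.18, 10.04, 10.08, 10.25 and 10.26 in the inputs (ratio 0.188), and Ccnb2 (0.203) and Plk1 (0.336) were also depleted. The enriched gene was Cdkn1b, which encodes the cell cycle inhibitor p27 (3.45). In the Leydig IPs 14 of the 29 genes were depleted and 1 was enriched (median 0.526), and Bub1 stood at 0.217. By the test of the difference 3 of the list were higher and 3 lower in the Sertoli line. Of 57 cytosolic ribosomal protein genes none was enriched and 7 were depleted (median 0.785, where 13.6 percent of all genes were depleted), 2 of them the testis copies Rpl10l (0.315) and Rpl39l (0.219). Respiratory chain subunits gave 4 enriched and 3 depleted of 67 (median 0.912) and proteasome subunits 2 and 1 of 34 (median 1.13). Over all genes 15.1 percent were enriched and 13.6 percent depleted. Rmrp and Rpph1, short structural RNAs that are not translated, were depleted (0.167 and 0.216), while the nuclear RNA Malat1 stood at 0.501 and was not called. On a list of nuclear noncoding RNAs 2 of 9 were depleted, 7 were not called and none was enriched (median 0.757).

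Many enzymes exist in a somatic form and in a form made by germ cells. Of 22 such pairs with both forms measured, the germ cell form was depleted in 19 and enriched in none, the somatic form was enriched in 10, depleted in 2 and not called in 10, and the somatic ratio was the higher one in 21. Of all genes 13.6 percent were depleted and 15.1 percent enriched. Germ cell forms were listed as transcripts of germ cells, so these counts only describe the list. Cytochrome c gave 4.03 for Cycs and 0.330 for Cyct, heat shock protein 70 gave 2.80 for Hspa8 and 0.327 for Hspa2, and the proteasome subunit alpha 7 gave 3.79 for Psma7 and 0.331 for Psma8. In the Leydig IPs these pairs stood at 2.19 and 0.332, 2.33 and 0.286, and 3.94 and 0.346. Phosphoglycerate kinase is encoded by Pgk1 on the X chromosome in somatic cells and by the autosomal retrogene Pgk2 in meiotic and later germ cells. Pgk1 had signals of 10.03, 9.81, 9.98, 10.16 and 10.15 in the IPs and 8.49, 8.25, 8.44, 8.64 and 8.53 in the inputs, a ratio of 2.94 (SE 0.088 on the log2 scale, adjusted p = 1.04e-08, limma). For Pgk2 the IPs measured 10.83, 10.83, 10.78, 11.03 and 11.20 and the inputs 12.21, 12.16, 12.22, 12.00 and 12.00, a ratio of 0.440 (SE 0.090, adjusted p = 1.55e-07). The exception was Fabp3, lower than its germ cell counterpart Fabp9 (0.180 against 0.855). In the Leydig IPs Fabp3 stood at 6.25 and Fabp9 at 0.711, and Pgk1 stood at 4.38 and Pgk2 at 0.450.

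Promoters of enriched and depleted genes differed in base composition, and those of this pair are shown as an example. Over all tested genes with a promoter entry the median GC content was 59.7 percent, over the enriched genes 61.3 percent and over the depleted genes 55.3 percent, and the observed over expected ratio of CpG was 0.711 in enriched, 0.714 in uncalled and 0.524 in depleted genes, so that the depleted genes stood apart. The GC box GGGCGGG, searched on both strands, occurred in 56.4 percent of enriched, 34.4 percent of depleted and 47.0 percent of all genes. Pgk1 (chrX:106186850-106187149, plus strand) holds 5 matches and 24 CpG, and Pgk2 (chr17:40208560-40208859, minus strand) holds 0 matches and 4 CpG. The promoters of Cycs, Cyct, Pdha1 and Pdha2 held 0 GC boxes each. Their CpG counts differed, with 32 in Cycs against 8 in Cyct and 21 in Pdha1 against 4 in Pdha2. GC boxes are in capitals, and where matches overlap the run of capitals is longer.
Pgk1: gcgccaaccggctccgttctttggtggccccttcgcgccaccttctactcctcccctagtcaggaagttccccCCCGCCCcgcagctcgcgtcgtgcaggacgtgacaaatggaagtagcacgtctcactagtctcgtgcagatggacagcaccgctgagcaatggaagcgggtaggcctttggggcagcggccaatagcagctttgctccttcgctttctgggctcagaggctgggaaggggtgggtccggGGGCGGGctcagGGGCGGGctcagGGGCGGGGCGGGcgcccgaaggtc
Pgk2: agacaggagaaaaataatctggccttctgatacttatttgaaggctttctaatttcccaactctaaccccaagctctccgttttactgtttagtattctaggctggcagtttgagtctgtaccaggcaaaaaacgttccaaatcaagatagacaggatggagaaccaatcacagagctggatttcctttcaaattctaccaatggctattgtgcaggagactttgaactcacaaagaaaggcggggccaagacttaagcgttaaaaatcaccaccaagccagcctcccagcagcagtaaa

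**Figure D3:**
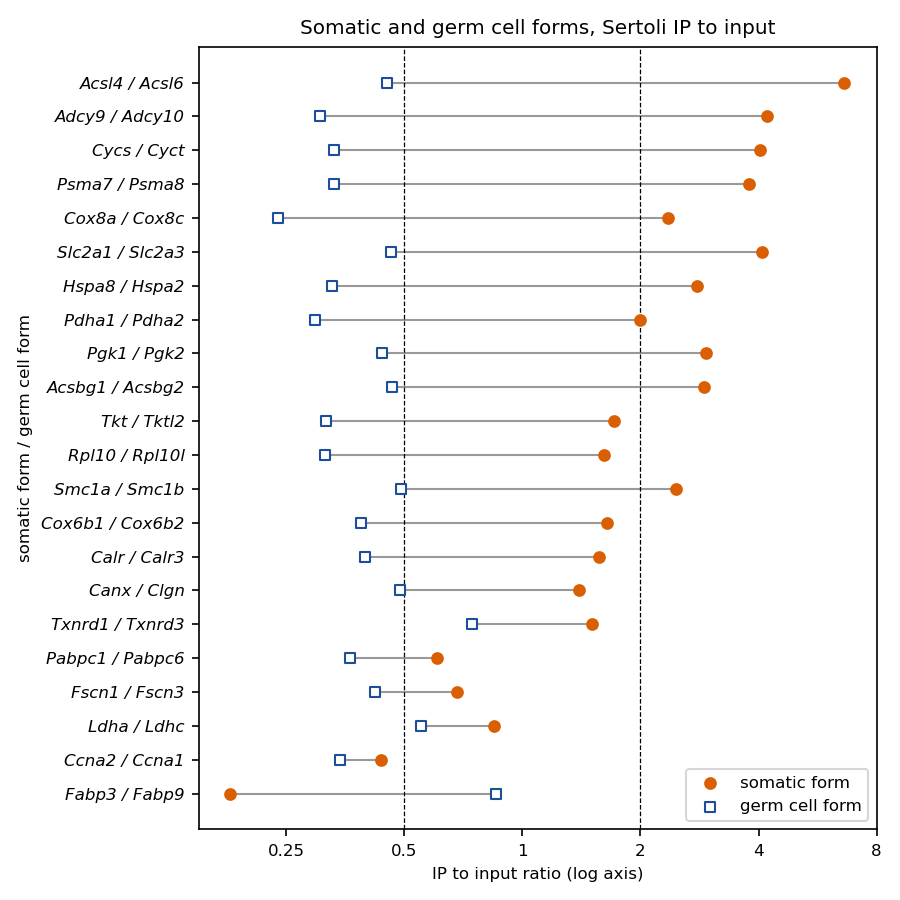
IP to input ratio (horizontal log axis) of 22 pairs of a somatic form (filled circle) and a germ cell form (open square) of an enzyme or structural protein in the saline-treated AMH-Cre: RiboTag mice, joined by a line. The somatic form lies to the right in 21 pairs, and the pair of Fabp3 and Fabp9 runs the other way.

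The X chromosome stood apart from the autosomes. In male germ cells X-linked genes are silenced during meiosis, while somatic cells of the testis keep 1 active X. Of 519 X-linked genes tested 212 (40.8 percent) were enriched, against 2153 of 15080 autosomal genes (14.3 percent) and between 11.6 and 18.1 percent on single autosomes. The share that was depleted was 17.7 percent on the X and 13.4 percent on the autosomes. This count was chosen after its values were seen. The share was higher on the X in each tertile of mean signal. In the tertile with the highest signal 75.5 percent of 102 X-linked genes were enriched against 19.3 percent of 5111 autosomal ones, in the middle tertile 49.5 against 20.4 percent and in the lowest tertile 16.3 against 2.98 percent. Among the enriched X-linked genes were Gpc4, Acsl4, Atp7a, Diaph2, Gata1, Nr0b1 and Amot, and the 2 transcripts Gm648 (8.74) and Capn6, a calpain without protease activity (8.33), which had the highest ratios on that chromosome. X-linked genes with the lowest ratios were 4921511C20Rik (0.139), Fam122c (0.150) and Tcp11x2 (0.154), and these were as low in the Leydig IPs (0.113, 0.147 and 0.174). In the Leydig line 176 of 535 X-linked genes (32.9 percent) were enriched against 11.8 percent of autosomal genes.

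**Figure D4:**
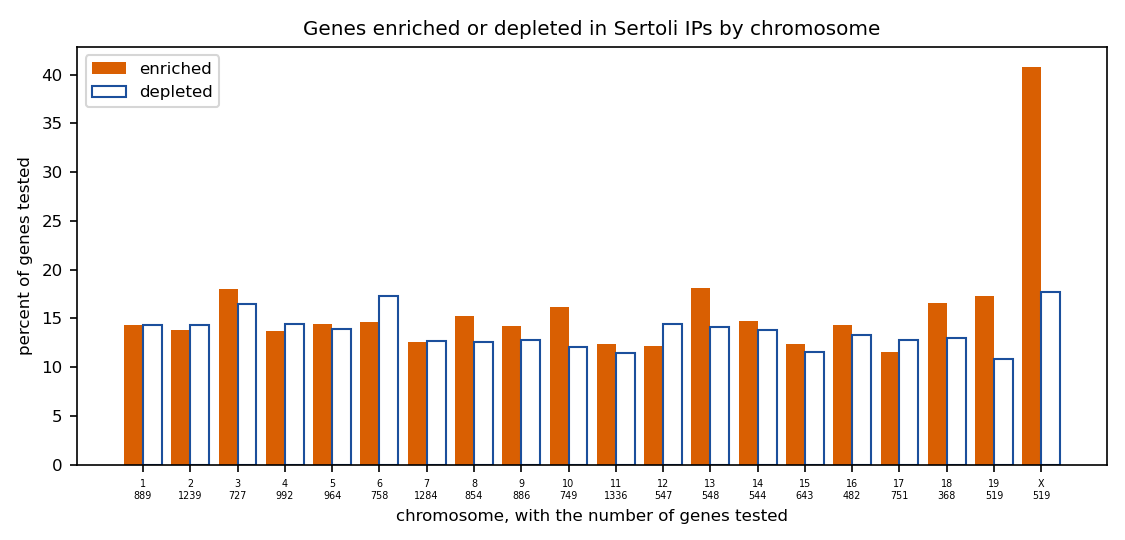
Percent of tested genes that were enriched (filled bars) or depleted (open bars) in the Sertoli IPs, by chromosome (horizontal axis), with the number of genes tested under each. Enrichment on the X reached 40.8 percent and that on single autosomes lay between 11.6 and 18.1 percent.

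Set against the Leydig line, 1527 of 25524 probe sets (5.98 percent) had a higher and 1399 (5.48 percent) a lower enrichment in the Sertoli line by the test of the difference. Of the 2367 genes enriched in Sertoli IPs 888 (37.5 percent) were enriched in Leydig IPs too, and these were 46.6 percent of the 1904 genes enriched there. The difference between the ratios passed the test in the direction of the Sertoli line for 1067 of the 2367 (45.1 percent) and in that of the Leydig line for 91. Of the 2136 depleted genes 1652 (77.3 percent, and 81.9 percent of those depleted in Leydig IPs) were depleted in both lines and 99 were enriched in the Leydig IPs. The largest differences toward the Sertoli line were those of Plppr5, a phospholipid phosphatase related membrane protein, Gm648, Tmem114, Capn6 and Itga6. Plppr5 signals were 10.05, 10.27, 10.09, 9.93 and 9.71 in the Sertoli IPs and 7.34, 7.21, 7.15, 7.34 and 7.01 in their inputs, a ratio of 6.96 against 0.856 in the Leydig line (difference log2 3.02, SE 0.21, adjusted p = 7.87e-09). Differences toward the Leydig line were larger, at log2 -6.36 for Ces1d, a carboxylesterase, and -5.69 for Cd36. Tmem114, a membrane protein related to claudins, stood at 7.39 against 1.01. Sptb, erythrocyte type beta-spectrin, and Etl4, the transcripts set aside in the study as products of the precipitation, had the highest ratios in the Sertoli IPs and stood higher still in the Leydig IPs. For Sptb the ratios were 9.03 and 15.8, and for Etl4 they were 8.88 and 12.5.

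**Figure D5:**
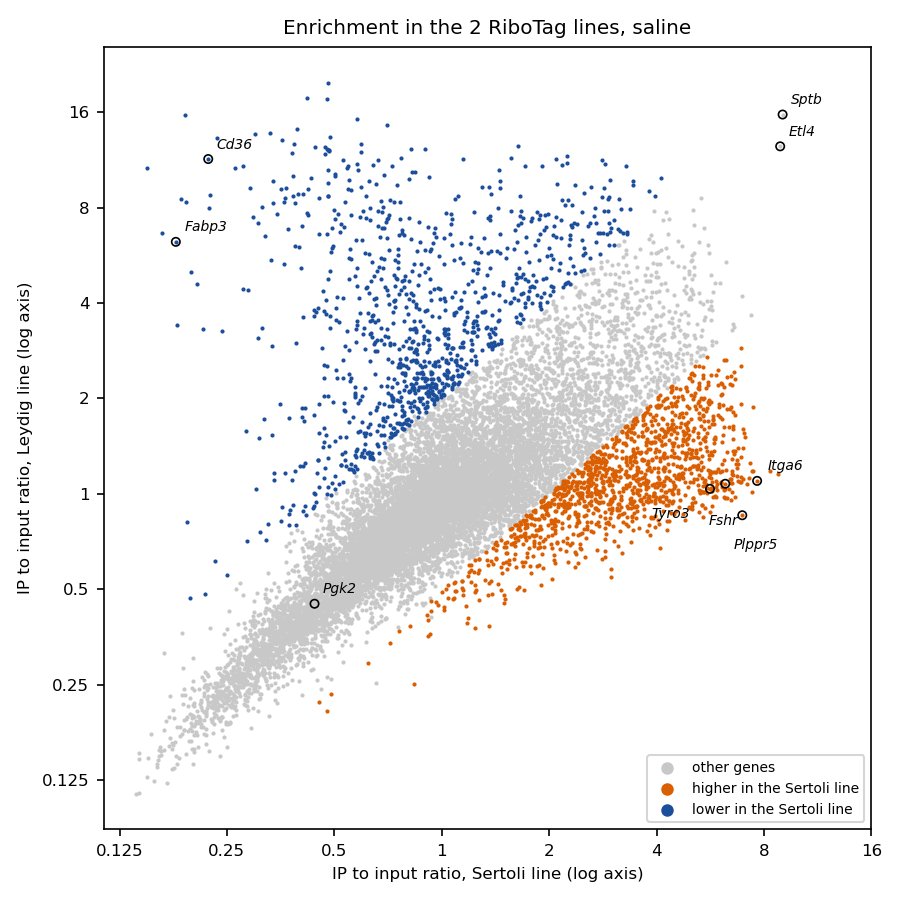
IP to input ratio of each gene in the Sertoli line (horizontal log axis) against that in the Leydig line (vertical log axis), all from saline-treated mice. Genes whose enrichment was higher in the Sertoli line by the test of the difference are orange, those lower are blue and the others grey, and 9 genes of the text are named.

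The series holds 10 more IPs of this line, 2 for each of 5 hormone treatments, which entered only the alternative that fits all arrays of the line and which have no inputs of their own. For the 4 of them given cetrorelix the source label reads input, while the title, the sample type and the antibody read IP. Their Fshr signals ran from 8.90 to 9.48, those of Tyro3 from 11.12 to 11.37 and those of Sema7a from 11.83 to 12.25. Each of these lay above the highest saline input, at 6.69, 8.89 and 9.55. Signals of Cd36 ran from 5.24 to 6.29 and those of Bub1 from 7.54 to 8.02, below the lowest saline input at 7.90 and 10.04.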

How the data were processed

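The authors normalized 32 Affymetrix Mouse Gene 1.0 ST arrays by RMA, which equalizes the arrays, and the log2 signals of 35556 probe sets were used as deposited. The version of RMA and its chip definition are not given in the sources used here. Fits held the 10 saline AMH-Cre arrays and, for comparison, the 6 saline Cyp17iCre arrays, and no arrays were identical. The number of arrays limits the precision. Of the probe sets 21789 had 1 gene symbol, 1621 had several and 12146 are not in the annotation table used, and the last 2 kinds stayed unnamed. Entrez IDs matched 21698 to RefSeq, and 0 symbols changed.

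Tested were probe sets above 50 on the linear scale in 1 or more arrays (24797 for the Sertoli line, 25524 for both lines), with limma 3.58.1 in R 4.3.3 (lmFit and eBayes, 8 and 12 residual degrees of freedom) and Benjamini-Hochberg adjustment over all probe sets of a comparison. Calls needed an adjusted p under 0.05 with a 2-fold difference. A gene is read at its probe set with the highest mean over the 10 Sertoli arrays.

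The genes named are 4 cell markers, members of lists and of pairs of somatic and germ cell forms, the 25 largest and 15 smallest ratios, and the 10 largest differences between lines. Members and lists were chosen with earlier results of these data known, and chromosome counts and promoter motifs after seeing the data. RefSeq (GRCm38.p6) held a promoter for 12449 of 15665 genes (79.5 percent). Alternatives were other filters, scalings, variance models and thresholds, a replicate block, each array left out in turn and replicates 1 to 3 alone. The scripts were tested on simulated data.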

Additional observations from a re-analysis of the deposited data

Results flagged for a closer look

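Between the RiboTag lines, 1272 genes (7.99 percent of 15919) had a higher and 1085 (6.82 percent) a lower enrichment in the Sertoli IPs than in the Leydig IPs by the limma test of the difference. Among the genes described singly the log2 difference was 3.02 for Plppr5, 2.76 for Slc2a12, 2.76 for Hpse, 2.73 for Slc27a6, 2.47 for Plxnc1, 2.45 for Tyro3, 2.31 for Sema7a and 2.14 for Axl.

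In 18 of 534 groups of 5 arrays, over the 267 genes named, 1 array lay far from the other 4. Chance flags about 1 in 20 such groups. IP 4 stood apart for 4 genes, at a log2 signal of 6.71 for Cd36 (nearest other IP 6.01), 5.97 for Ptgs2 (5.30), 12.63 for Hspa8 (12.72) and 10.40 for Pygb (10.63). IP 1 did so for Plk1 at 8.59 (8.79), Nectin3 at 10.19 (10.40) and Slc40a1 at 8.44 (8.03). IP 5 lay below the others for Mertk at 9.04 (9.49) and Rac1 at 10.20 (10.37), IP 2 for Lamb1 at 6.17 (6.42) and IP 3 for Nrp1 at 5.11 (5.37). Among the inputs, replicate 5 lay above the others for Dmrt1 at 8.58 (8.41), Slc7a1 at 8.68 (8.49) and Tgfb2 at 5.62 (5.47). Single inputs were also high for Bsg at 10.78 in input 2 (10.60), Fpgs at 8.87 in input 3 (8.79), Hpse at 7.97 in input 1 (7.71) and Tuba3b at 12.53 in input 4 (12.32). The IPs and inputs of Cd36, Mertk and Hpse did not overlap with these arrays included.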

How the results depend on the processing

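Without the fold threshold 7942 probe sets were enriched and 9225 depleted in the Sertoli IPs, against 3066 and 2907 with it. With 1 array left out the counts lay between 3026 and 3118 enriched and 2842 and 2958 depleted, and between 1477 and 1556 higher and 1384 and 1459 lower than in the Leydig line. Centring arrays on their medians gave 3220 enriched and 2709 depleted, and quantile scaling gave 3026 and 2958. Replicates 1 to 3 alone gave 3244 and 2947. The remaining alternatives (filters, variance models, the unadjusted p, all Sertoli arrays in 1 fit) stayed within 1.5 times of the main counts.

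IPs and inputs share replicate numbers. Their deviations from the group means correlated at 0.161, 0.0808, 0.0896, -0.0275 and 0.152 for numbers 1 to 5, so the check gave no sign that the numbers mark pairs. The study speaks of inputs belonging to the IPs, and the labels do not say which. With the replicate number as a block 3067 probe sets were enriched and 2906 depleted, and 1526 were higher and 1399 lower than in the Leydig line.

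Of 267 genes named, under 5861 alternative values, none reversed, 30 values lost and 42 gained the call. For their difference from the Leydig line, under 6397 alternative values, none reversed, 28 values lost and 54 gained the call. The losses were those of Folr1, Slc46a1, Malat1, Jag1, Myo7a and Slc7a1. Ratios near 2-fold crossed it when 1 array was left out: Slc2a2 without input 2 or 4 or IP 5 (log2 0.95 to 1.00), Atox1 without input 4 or 5 or IP 2 or 3 (0.97 to 1.00), Map1lc3a without input 2 or 3 or IP 1 or 5 (-0.96 to -0.95), Atg9a without input 5 (-0.99), Diaph3 without IP 1 (-0.99), Fpgs without IP 4 (-0.99) and Nrp1 without input 4 or IP 3 (-0.99), while Malat1 passed without input 2, 3 or 5 or IP 1, 4 or 5 (-1.05 to -1.01) and Pdha1 without input 1 or 4 or IP 4 or 5 (1.00 to 1.06). Quantile scaling took Rxrb and Wnt6 under 2-fold (0.98 and 0.97), centring took Atg9a, Diaph3 and Map1lc3a there (-0.998 to -0.98), and replicates 1 to 3 alone Atox1 and Slc2a2 (0.94 and 0.97) and Atg9a and Fpgs (-0.97 and -0.99). Counts within lists moved with these, to 1 depleted autophagy gene without input 2, 3 or 5 or IP 1 or 5, 3 depleted glutathione and antioxidant enzymes without IP 1, and 1 depleted gene of sex determination without input 1 or 3. The enriched share was 28.7 percent on the X and 11.3 percent on the autosomes without the filter, 50.1 and 17.7 percent with a limit of 100, 60.3 and 34.6 percent without the fold threshold, and 40.5 to 41.6 and 14.1 to 14.6 percent with 1 array left out. The mean over the probe sets of a gene gives no count of probe sets and was run for genes only. The labels give no animal or batch, so neither could enter a fit, and probe sets that share sequence with a near copy can share signal.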
